A study of Rattus norvegicus with 67 samples.

Results

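Histone retention in sperm was examined along rat chromosome 12, defined as every 1000 bp window of the lineage count table that lies on this chromosome. These were 52717 of the 2782040 windows of the table, and 2618741 windows of chromosomes 1 to 20 gave the background. The chromosome was chosen by the measured difference between the lineages, since windows that differed had been found more often on it in an earlier look at the same table, so values of that contrast are a description. Counts of windows or bins past a p threshold in it restate the values that chose the chromosome, and nothing is read from them. Of the 52717 windows, 50138 held at least 1 read in some animal and 2579 held none.

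The study followed F3 generation male Sprague Dawley rats, an outbred strain, whose F0 generation great-grandmothers received 25 mg/kg atrazine, a herbicide, or the DMSO vehicle on days 8 to 14 of gestation. The males were aged to 1 year, were themselves never dosed, and their sperm was taken from the cauda epididymis for chromatin immunoprecipitation with a histone H3 antibody followed by sequencing (ChIP-Seq). The atrazine lineage held 50 males with counts, namely 19 without disease, 5 with lean phenotype only, 3 with kidney disease only, 4 with testis disease only, 5 with late puberty only and 14 with more than 1 disease (multiple disease), for which the labels also name prostate disease, obesity and tumors. The control lineage held 16 males with counts, of which 9 were listed without disease and 7 had a disease. In the paper's pathology list some of these 9 have gaps. M2 has no entry for testis, prostate, kidney or lean, M18 has none for testis and M12 has none for obesity. Which males share a litter was not used here. The methods name either a pan H3 antibody or a trimethyl H3 antibody and speak of pooled sperm, whereas the counts are given per animal. P-values therefore measure the spread between these libraries.

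In the formation of sperm most histones are replaced by protamines, small basic proteins that pack the DNA tightly. A minor share of nucleosomes is retained, often at gene promoters and other CpG-rich sequence, and retained nucleosomes are one way in which a chromatin state can pass through the male germline. A region of altered histone retention between groups is called a differential histone retention region (DHR). The measurement here is a share of reads: RPM is the read count of a window scaled to a common library total. The level of a chromosome is the log2 ratio of its mean RPM per window to that of chromosomes 1 to 20 together, so a level of 0 is the average chromosome and a gain on one chromosome lowers the others. No reads from an input without antibody entered these values, and the level is not an absolute amount of histone.

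The window counts of a library summed to 19909382 to 239635003, with a median of 5.71e+07. These totals are sums over windows, and the number of reads sequenced was not used. The median covered window of chromosome 12 held 6 reads in the library with the fewest and 79 in the one with the most. The treatment tag of the sample list was at odds with the lineage in all 16 control animals and in M57 to M69, 13 animals of the atrazine lineage, and the titles and lineage tags were followed. The libraries of M48 (multiple disease) and M28 (lean phenotype) stood above the other 64 on chromosome 12 and were among the smaller ones with totals of 20151792 and 26487836. Both are at the extreme of this level, so leaving them out lowers its spread by construction. Several levels, medians and counts of calls are also given without them. Other values, among them the share of reads and the counts of bins by unadjusted p, are given only with them.

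Chromosome 12 had the lowest mean level of the 20 autosomes and the largest spread between animals. Its reads were 1.82% ± 0.326 (SD, n = 66) of those on a library's table. Its level was lowest at -0.364, had a median of -0.13 and was highest at 1.02, with a mean of -0.10 ± 0.197 (SD, n = 66). The SD of 0.197 compares with 0.119 for chromosome 10, the next in order, 0.0876 for chromosome 20, 0.0864 for chromosome 2 and 0.0149 for chromosome 3, the least variable autosome. Without M28 and M48 the SD of chromosome 12 was 0.119 and that of chromosome 10 was 0.0772, and chromosome 12 was again the most variable.

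**Figure D1:**
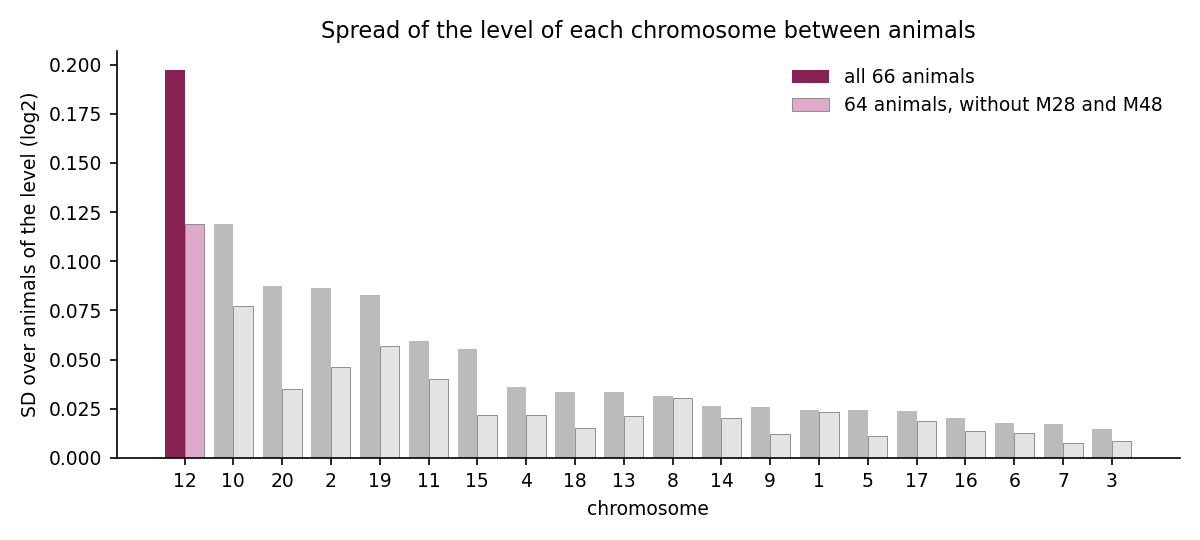
Standard deviation over animals of the level of each autosome on a log2 scale, with all 66 animals and without M28 and M48. Chromosome 12 is the highest point in both series, at 0.197 and 0.119.

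The 5 highest libraries on chromosome 12 were M48 at 1.02, M28 at 0.48, M22 at 0.26, M42 at 0.25 and M17 at 0.14. They came from the multiple disease, lean and no disease groups of the atrazine lineage and, for M17, from the control lineage. The mean RPM per window of chromosome 12 was 0.785 in the highest library, against a median of 0.350 and a lowest value of 0.301. Without these 5 libraries the SD was 0.0928, still the largest of the 20 autosomes.

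The level of chromosome 12 moved with that of most other autosomes. Over 66 animals it rose with chromosome 10 (Pearson's r = 0.99, Spearman's rho = 0.98) and with chromosome 20 (r = 0.96, rho = 0.97), and it fell as chromosome 2 (r = -0.99, rho = -0.99) and chromosome 11 (r = -0.99, rho = -0.99) rose. Each of these has a permutation p of 1e-05, the smallest that 100000 resamples can give, and a Benjamini-Hochberg adjusted p of at most 1.3e-05 over 19 autosomes. Of the 19 correlations 8 were positive and 11 negative, and 18 had an adjusted p below 0.05 by r and 17 by rho. Without M48 and M28, the 2 animals farthest from the median, r was 0.99 for chromosome 10 and -0.99 for chromosome 2 (n = 64), while the sign changed for chromosomes 3, 5 and 17. Within the atrazine lineage r with chromosome 10 was 0.995 (n = 50) and within the control lineage it was 0.99 (n = 16). The points share one total per library, so a gain on some chromosomes requires a loss on others.

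The landscape along the chromosome was described in 53 bins of 1 Mb. The median over bins was 0.333 RPM per window, against 0.376 over the bins of chromosomes 1 to 20, and 44 of the 53 bins lay between 0.28 and 0.40. The levels were highest near the start of the chromosome, at 0.879 in the fourth bin (chr12:3000001-4000000), 0.749 in the first (chr12:1-1000000) and 0.453 in the second (chr12:1000001-2000000). They were lowest in the eighth bin at 0.247 (chr12:7000001-8000000) and in the neighbouring bins chr12:20000001-21000000 and chr12:21000001-22000000 at 0.252 and 0.278. Apart from the chromosome's own level, the median bin was steadier between animals than over chromosomes 1 to 20, but the bins were uneven. The SD over animals of a bin relative to its chromosome had a median of 0.0934, against 0.123 over chromosomes 1 to 20, and chromosome 12 ranked 19 of the 20 autosomes by this measure. Without M28 and M48 these medians were 0.0498 and 0.0753. With all animals the bin SDs were themselves more uneven on chromosome 12 (SD over bins 0.0821) than over chromosomes 1 to 20 (0.0689). The SD was largest in chr12:20000001-21000000 at 0.378, in the fourth bin at 0.365 and in the fifth at 0.289, and without M28 and M48 it was 0.297, 0.219 and 0.150 in these.

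The library of M48 differed in shape as well as in level. M48 had the highest RPM of all animals in 42 of the 53 bins, yet in the fourth bin, the peak of the other animals, it had 0.415 RPM per window. Relative to the chromosome, M48 was the highest animal in 24 bins and the lowest in 22. M48 or M28 was at an extreme of this relative level in 51 of the 53 bins.

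**Figure D2:**
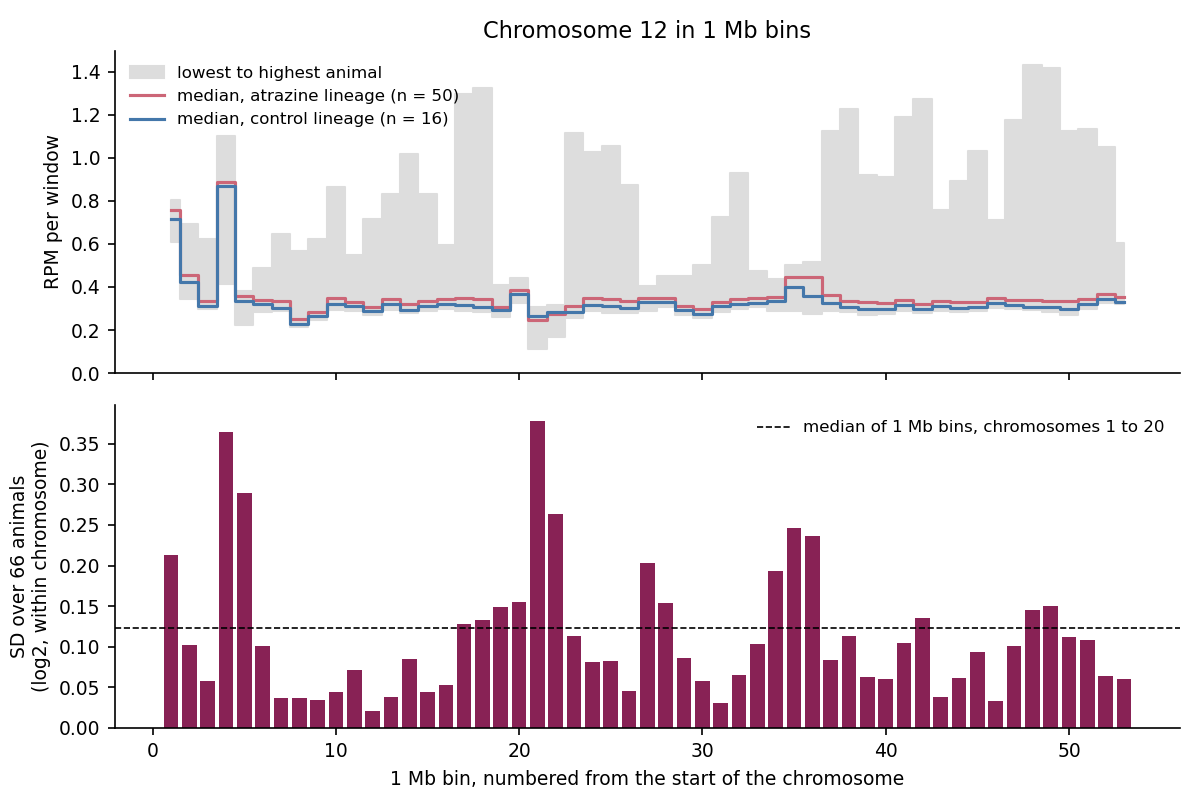
RPM per window in 1 Mb bins along chromosome 12 (upper panel, with the median of each lineage and the range over 66 animals) and the SD over animals of each bin relative to the chromosome (lower panel, log2). The lineage medians run close together, the highest bins lie within the first 4 Mb, and the largest SD of 0.378 lies in the bin that starts at 20 Mb.

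The windows with the highest levels lay near the chromosome start. The highest window, chr12:3351001-3352000, had a median of 25.1 RPM (7.85 to 49.7 over 66 animals), followed by chr12:1510001-1511000 with 23.5 (7.32 to 42.3) and chr12:3355001-3356000 with 22.6 (7.54 to 41.9). The median over covered windows was 0.351 RPM. At or above 10 times that value stood 45 windows, of which 43 lay in the first 5 Mb, and together they took 2.46% of the reads of the chromosome. The study's region lists, the only source of gene names here, give no gene for the 3 highest windows, which does not place them away from genes. Their medians in the atrazine and control lineages were 25.1 and 24.9 RPM, 23.8 and 23.3 RPM, and 22.2 and 22.97 RPM.

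The largest spread on chromosome 12 lay between 20 and 22 Mb. In bins of 50 kb the SD over animals had a median of 0.13 on chromosome 12 (1002 bins) and 0.163 on chromosomes 1 to 20 (50953 bins). The stretch chr12:20650001-20700000 had an SD of 0.794, the largest of chromosome 12 and the seventh largest of chromosomes 1 to 20, and 0.727 without M28 and M48. The stretches chr12:20350001-20400000 (SD 0.643) and chr12:21050001-21100000 (SD 0.544) came next. These SDs are of log2 differences from the level of the chromosome in the same animal.

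At chr12:20650001-20700000 the animals spread over a wide range. The atrazine lineage had a lowest value of 0.0389, a median of 0.220 and a highest value of 0.401 RPM per window, and the control lineage had 0.230, 0.310 and 0.416. Below 0.13 RPM stood 8 atrazine lineage animals and no control animal, between 0.13 and 0.28 stood 30 and 2, and above 0.28 stood 12 and 14. Both limits were chosen after the values were seen. The 8 lowest animals were M25, M68, M67, M43, M31 and M39 (no disease), M28 (lean phenotype, 0.0581 RPM) and M32 (testis disease, 0.0506 RPM). The lineages overlapped, and low values occurred in animals with and without disease.

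**Figure D3:**
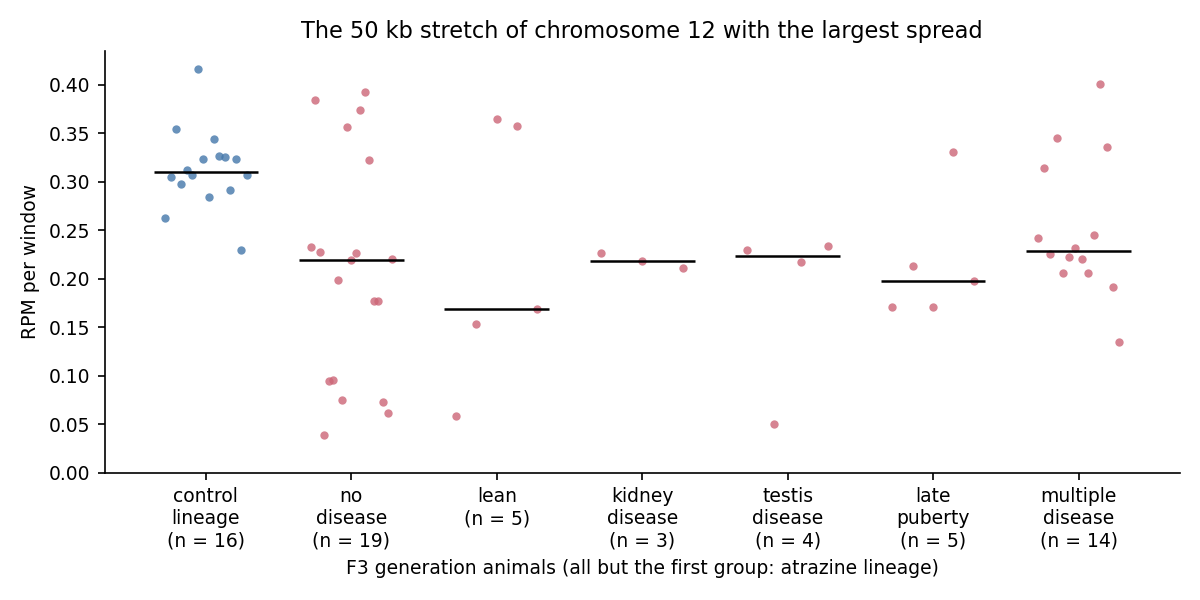
RPM per window in the 50 kb stretch of chromosome 12 with the largest spread, 1 point per animal and a bar at each group's median. The 16 control lineage animals sit between 0.230 and 0.416, and the 50 atrazine lineage animals between 0.0389 and 0.401.

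The comparison of lineages is the one by which the chromosome was chosen. The level of chromosome 12 was lowest at -0.364, had a median of -0.12 and was highest at 1.02 in the 50 atrazine lineage animals, and was -0.364, -0.23 and 0.14 in the 16 control animals. The groups overlapped, and 47 of 50 atrazine lineage animals lay above the control median. The means differed by 0.12 ± 0.043 (SE), and by 0.086 without M28 and M48. Both differences include M57 to M69, the 13 atrazine lineage animals with the contradicting tag. Their levels ran from -0.364 (M62) to -0.062 (M57), and all but M62, the lowest animal, lay within the control range. By this difference chromosome 12 was the first of the 20 autosomes, followed by chromosome 10 with 0.0771.

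**Figure D4:**
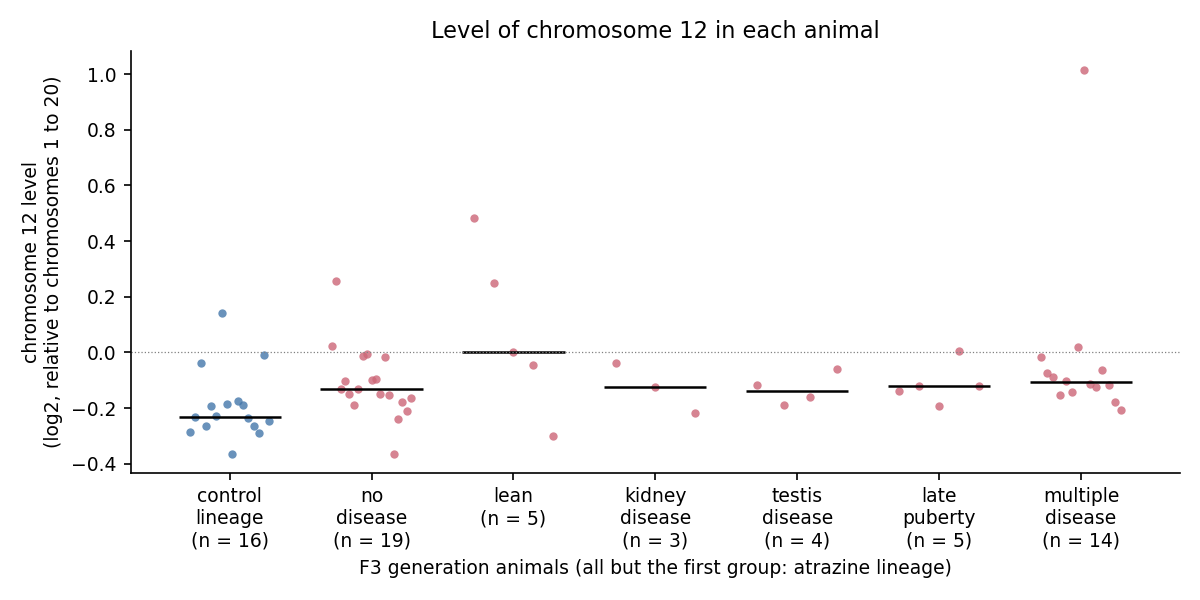
Level of chromosome 12 in each animal (log2 against chromosomes 1 to 20), by group, with a bar at each group's median. M48 at 1.02 and M28 at 0.48 stand above all other animals.

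Over the tested windows of chromosome 12 (a mean of at least 10 reads) the median log2 fold change between lineages was 0.14 (81.5% above 0), against 0.0016 over chromosomes 1 to 20. It was 0.098 without M28 and M48 and 0.18 without the animals that carry the contradicting tag. By edgeR's quasi-likelihood test 16 of 46473 windows had p below 0.0001, with 15 higher and 1 lower in the atrazine lineage, beside 0.013% of windows of chromosomes 1 to 20 (0.00869% higher, 0.00434% lower). At p below 0.05 there were 5470 windows, 5193 of them higher, beside 6.13%. The 16 windows grew into 16 DHRs of 1000 to 32000 bp with a median of 3500 bp. Of the 53 bins of 1 Mb, 7 had an adjusted p below 0.05, all higher in the atrazine lineage, beside 10.8% of all bins. At p below 0.05 there were 44 bins, beside 36.2%. These counts and their split moved with the choice of animals and model. The alternative window fits used chromosome 12 and 200000 other windows, in which 15 windows had p below 0.0001 with all animals. The share over all windows was not computed there, so only the bins have a share beside them. With M28 and M48 left out there were 42 windows (36 higher, 6 lower) with p below 0.0001. There were also 5010 with p below 0.05 (4676 higher) and 27 bins, beside 30.4% of all bins. With only animals without disease there were 13 windows, none of them among the 16, and 0 bins. That fit had 19 and 9 animals in place of 50 and 16. The lineage windows named below kept their direction in it. The log2 fold changes were 0.49 at chr12:3109001-3110000, 0.70 at chr12:23325001-23326000 and -0.61 at chr12:20660001-20661000. With the level of chromosome 10 as a covariate, a model chosen after seeing the data, there were 73 windows (42 higher, 31 lower) and 20 bins (6 higher), beside 53.1% of all bins, and the median was -0.016. The level of chromosome 10 follows that of chromosome 12 (r = 0.99), so this model takes out most of the difference by construction.

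Among the windows with the smallest p, 5 higher ones are described. The window chr12:3109001-3110000, for which the files give no gene, had a lowest value of 0.0992, a median of 0.530 and a highest value of 1.09 RPM in the atrazine lineage and 0.175, 0.367 and 0.535 RPM in the control lineage, a log2 fold change of 0.60 ± 0.12 (SE). The window chr12:23325001-23326000, which the study's region list pairs with Cux1, a homeodomain transcription factor, had 0.106, 0.367 and 0.647 RPM against 0.0362, 0.212 and 0.402 RPM, a log2 fold change of 0.74 ± 0.16. The window chr12:49733001-49734000, paired with Grk3, a kinase of G protein-coupled receptors, had 0.261, 0.420 and 0.625 RPM against 0.1005, 0.293 and 0.475 RPM (0.55 ± 0.12). Groups overlapped in each of these windows, and the difference lay in the medians. The windows chr12:36043001-36044000, paired with Tmem132b, and chr12:35254001-35255000, with no gene given, had medians of 0.355 against 0.213 RPM and 0.286 against 0.172 RPM. Further called windows were paired with Kpna7, an importin alpha family member (median 0.366 against 0.219 RPM), Gtf2i, which encodes the transcription factor TFII-I (0.419 against 0.285 RPM), and Aacs, acetoacetyl-CoA synthetase (0.362 against 0.255 RPM).

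The lower windows with the smallest p lay between 20 and 21 Mb. The window chr12:20660001-20661000, in the stretch of largest spread, had 0.0480, 0.398 and 0.715 RPM in the atrazine lineage and 0.352, 0.615 and 1.03 RPM in the control lineage (log2 fold change -0.65 ± 0.16), with 46 of 50 animals below the control median. The windows chr12:20796001-20797000 and chr12:20807001-20808000, which had the next smallest p and did not pass the threshold, had medians of 0.276 against 0.496 RPM and 0.341 against 0.478 RPM, and in each at least 1 atrazine lineage animal was at 0. Both passed it without M28 and M48. The call of chr12:20660001-20661000 was lost with DESeq2 size factors and at a mean of 20 reads. It was also lost without M57 to M69 and with only animals without disease. Along the chromosome 51 of 53 bins had a difference above 0. The other 2 were chr12:20000001-21000000 and chr12:21000001-22000000, at -0.24 and -0.11. The bin with the smallest p, chr12:35000001-36000000, had 0.276, 0.447 and 0.518 RPM per window in the atrazine lineage and 0.287, 0.360 and 0.487 in the control lineage (edgeR log2 fold change 0.23 ± 0.053), with 47 of 50 animals above the control median.

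The 5 disease groups were each compared with the same 17 atrazine lineage animals without disease, so these comparisons share their reference animals. M59 and M68, without disease, have counts but are not among the 17. The contradicting tag is carried by 1 lean, 2 kidney disease and 4 multiple disease animals and by 4 of the 17. The level of the 17 was -0.364 at the lowest, -0.13 at the median and 0.26 at the highest. The rule that chose the chromosome did not use the disease contrasts, but their animals are part of the lineage contrast that it used. The disease values are therefore not independent of that choice.

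Lean phenotype animals had a higher mean level of chromosome 12, and the difference did not pass the test with all animals. The levels were 0.48 in M28, 0.25 in M42, 0.0022 in M54, -0.044 in M56 and -0.30 in M66. M28 was above all 17 reference animals, 4 of the 5 were above their median, and M66 was near their lowest. The difference of means was 0.18 ± 0.14 (SE), with an exact two-sided permutation p of 0.0855 (adjusted p = 0.428 over 5 disease comparisons). Without M28 it was 0.081 (p = 0.363, exact permutation test). Without M66 it was 0.28 (p = 0.0137, exact permutation test), and without M66 and the 4 reference animals that carry the contradicting tag it was 0.24 (p = 0.0319, exact permutation test). These 3 p-values are not adjusted over the comparisons.

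In the lean phenotype most called windows of chromosome 12 were higher than in the reference animals. By edgeR's quasi-likelihood test 25 of 45642 windows had p below 0.0001, 20 higher and 5 lower, which is 0.0548% beside 0.0402% over chromosomes 1 to 20. The higher ones were 0.0438% of the tested windows, beside 0.0169%, and the lower ones 0.011%, beside 0.0233%. None had a Benjamini-Hochberg adjusted p below 0.05. At an unadjusted p below 0.05 there were 7284 windows, 6713 higher, beside 11.4%, and DESeq2 gave 41 windows with p below 0.0001. The median log2 fold change was 0.23, against 0.0079 over chromosomes 1 to 20. The fits with an animal left out used chromosome 12 and 200000 other windows. In that subset with all 5 animals 18 windows had p below 0.0001 (14 higher, 4 lower), and 7116 had p below 0.05. The first count rested on single libraries: it was 1 without M28, 8 without M42, 40 without M54, 29 without M56 and 81 without M66. The windows with p below 0.05 numbered 2310 without M28, 1805 of them higher. The share over all windows was not computed in these alternative fits or with DESeq2. Whether the other chromosomes moved alike cannot be read from these counts.

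The lean window with the smallest p was chr12:51232001-51233000, for which no gene is given. It had 1.40 RPM in M28, 0.661 in M42, 0.7497 in M54, 0.547 in M56 and 0.355 in M66, against 0.149, 0.295 and 0.695 RPM at the lowest, median and highest of the reference. M28 and M54 lay above the reference range, the log2 fold change was 1.17 ± 0.25 (edgeR p = 1.7e-05, adjusted p = 0.24), and the call was lost without either of them. The lower window with the smallest p was chr12:1478001-1479000, paired with Rfc3, a subunit of the clamp loader that places PCNA on DNA in replication. It had 0.0755 RPM in M28, 0.0678 in M42, 0.198 in M54, 0.146 in M56 and 0.325 in M66, against 0.236, 0.433 and 0.629 RPM. All but M66 lay below the whole reference range, with 2 to 14 reads each. The log2 fold change was -1.38 ± 0.30 (edgeR p = 2.3e-05, adjusted p = 0.24), and the call was lost without M28, M42 or M56.

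Both other lean windows with a gene were higher. The window chr12:22457001-22458000, paired with Slc12a9, of the cation-chloride cotransporter family, and Trip6, a LIM domain protein of cell adhesions, had 0.368, 0.693 and 0.798 RPM against 0.191, 0.310 and 0.473 RPM (log2 fold change 1.00 ± 0.22, edgeR p = 2.8e-05). The window chr12:42502001-42503000, paired with the T-box transcription factor Tbx3, had 0.443, 0.608 and 0.831 RPM against 0.210, 0.345 and 0.462 RPM (0.89 ± 0.21, edgeR p = 9.8e-05). In each, 4 of the 5 animals lay above the whole reference range. The call of the first was lost without M42, M56, M66 or the tagged animals and held without M28 (edgeR p = 6.5e-05). That of the Tbx3 window was lost with DESeq2 size factors, without the read filter, at a mean of 20 reads and on the subset of windows with all animals (edgeR p from 0.00011 to 0.00018). The fits with an animal left out used that subset. The window was also not called there without M28, M42, M54 or M56, which is therefore not credited to these animals.

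No 1 Mb bin differed in the lean phenotype after adjustment. By edgeR 0 of 53 bins had an adjusted p below 0.05, as did 0% of all 2629, and the smallest was 0.0767. At an unadjusted p below 0.05 there were 40 bins, beside 62.5% of all bins, and DESeq2 gave 0 after adjustment. The bin with the smallest p among the higher ones, chr12:1000001-2000000, had 0.624 RPM per window in M28, 0.567 in M42, 0.465 in M54, 0.517 in M56 and 0.430 in M66, against 0.379, 0.455 and 0.510. M28, M42 and M56 lay above the reference range (log2 fold change 0.21 ± 0.07, edgeR adjusted p = 0.077). Among the lower bins it was chr12:4000001-5000000, with 0.276 RPM per window in M28, 0.302 in M42, 0.354 in M54, 0.352 in M56 and 0.323 in M66, against 0.304, 0.359 and 0.375. All 5 lay below the reference median, and the log2 fold change was -0.13 ± 0.050 (edgeR adjusted p = 0.077). Without M56 or without M66 the bins past the threshold numbered 39 and 44, beside 58% and 80% of all 2629 bins.

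Kidney disease animals did not separate from the reference in the level of chromosome 12. Their levels were -0.038 in M23, -0.12 in M60 and -0.22 in M64, all within the reference range, and the means differed by -0.022 ± 0.061 (exact two-sided permutation p = 0.821, adjusted p = 0.912). By edgeR 1 of 46256 windows had p below 0.0001, beside 0.00239%, and 1233 had p below 0.05, beside 2.77%. That window, chr12:4752001-4753000, had 0.410 RPM in M23, 0.473 in M60 and 0.176 in M64, against 0.0450, 0.881 and 1.80 RPM. The groups overlapped, and the log2 fold change was -1.21 ± 0.29 (edgeR p = 6.3e-05, adjusted p = 1.0). The fits with 1 animal left out used chromosome 12 and 200000 other windows. In that subset the window was not called with all 3 animals (edgeR p = 0.000102). It was also not called with any 1 left out, which is therefore not credited to an animal. The higher window with the smallest p, chr12:4586001-4587000, had 0.542, 0.612 and 0.493 RPM in M23, M60 and M64, all above the reference range of 0.200 to 0.469 RPM, with a log2 fold change of 0.81 ± 0.25 (edgeR p = 0.0018, adjusted p = 1.0). Of the 53 bins of 1 Mb 0 had an adjusted p below 0.05 by edgeR or DESeq2, beside 0% of all bins, and 0 had an unadjusted p below 0.05, beside 0.19%.

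Testis disease animals had levels of -0.12 in M29, -0.19 in M32, -0.16 in M33 and -0.06 in M41, all within the reference range. The means differed by -0.028 ± 0.043 (exact two-sided permutation p = 0.712, adjusted p = 0.912). By edgeR 2 of 46116 windows had p below 0.0001, both lower, beside 0.00542%, and 1852 had p below 0.05, beside 3.66%. The first, chr12:11340001-11341000, paired with Kpna7, an importin alpha family member, had 0.140 RPM in M29, 0.209 in M32, 0.101 in M33 and 0.143 in M41, against 0.135, 0.416 and 0.848 RPM. All 4 lay below the reference median and M33 below the whole range, with a log2 fold change of -1.44 ± 0.31 (edgeR p = 1.3e-05, adjusted p = 1.0). The call was lost without M29, M33 or M41, and without M33 no window of the chromosome was called. The second, chr12:27355001-27356000, had no gene given and a log2 fold change of -1.22 ± 0.29. The higher window with the smallest p, chr12:5193001-5194000, had 0.649 RPM in M29, 0.494 in M32, 0.659 in M33 and 0.573 in M41, against 0.114, 0.321 and 0.522 RPM (0.88 ± 0.24, edgeR p = 0.00028, adjusted p = 1.0). Of the 53 bins of 1 Mb 0 had an adjusted p below 0.05 by edgeR or DESeq2, beside 0% of all bins, and 0 had an unadjusted p below 0.05, beside 0.342%.

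Late puberty animals had levels of -0.14 in M35, -0.12 in M36, -0.19 in M38, 0.0049 in M50 and -0.12 in M51, again within the reference range. The means differed by -0.011 ± 0.046 (exact two-sided permutation p = 0.912, adjusted p = 0.912). By edgeR 0 of 46028 windows had p below 0.0001, beside 0.00354%, and 1694 had p below 0.05, beside 3.48%, while DESeq2 gave 1 window with p below 0.0001. The window nearest to the threshold, chr12:28099001-28100000, had 0.101 RPM in M35, 0.111 in M36, 0.150 in M38, 0.110 in M50 and 0.337 in M51, against 0.210, 0.360 and 0.585 RPM. All but M51 lay below the reference range, with a log2 fold change of -1.11 ± 0.27 (edgeR p = 0.0001, which before rounding was just above the threshold, adjusted p = 1.0). Without M51 this window was called, and 1 window was called without M36 or without M50. The higher window with the smallest p, chr12:40532001-40533000, had 0.482 RPM in M35, 0.555 in M36, 0.389 in M38, 0.615 in M50 and 0.449 in M51, against 0.179, 0.264 and 0.591 RPM (0.82 ± 0.22, edgeR p = 0.00035, adjusted p = 1.0). Of the 53 bins of 1 Mb 0 had an adjusted p below 0.05 by edgeR or DESeq2, beside 0% of all bins, and 0 had an unadjusted p below 0.05, beside 0.418%.

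The 14 multiple disease animals had a lowest level of -0.21, a median of -0.11 and, in M48, a highest of 1.02. The means differed by 0.079 ± 0.088 (permutation p = 0.455, adjusted p = 0.912), and by -0.0013 without M48. By edgeR 0 of 45572 windows had p below 0.0001, beside 0.00136%, and 1880 had p below 0.05, beside 3.29%, while DESeq2 gave 1 window with p below 0.0001. The higher window with the smallest p, chr12:37746001-37747000, had 0.198, 0.470 and 0.588 RPM against 0.162, 0.328 and 0.576 RPM (log2 fold change 0.58 ± 0.15, edgeR p = 0.00025, adjusted p = 1.0), with 12 of 14 animals above the reference median. The lower one, chr12:14685001-14686000, had 0.0992, 0.301 and 0.489 RPM against 0.225, 0.462 and 0.572 RPM (-0.53 ± 0.15, edgeR p = 0.0011, adjusted p = 1.0), with 13 of 14 below it. Without M48 there were 2 windows with p below 0.0001. Of the 53 bins of 1 Mb 0 had an adjusted p below 0.05 by edgeR or DESeq2, beside 0% of all bins, and 0 had an unadjusted p below 0.05, beside 0.342%.

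Across the tested windows of the whole chromosome, the median log2 fold change was 0.23 in the lean phenotype (0.0079 over chromosomes 1 to 20) and 0.089 in multiple disease (0.018). It was -0.032 for kidney disease (-0.011), -0.049 for testis disease (-0.0099) and -0.033 for late puberty (-0.0096). With 1 disease animal left out it ranged from -0.080 to -0.0055 for kidney disease, -0.080 to -0.030 for testis disease and -0.067 to -0.011 for late puberty. With all animals chromosome 12 was at an end of the order of the 20 autosomes each time, first for the lean phenotype and multiple disease and last for the other 3. Chromosome 10 was next to it in the order each time. Chromosome 12 also had the largest spread of level between libraries, so its position is not read as a trait of a disease. The 5 comparisons share their reference animals. The lean median was between 0.10 and 0.31 with 1 lean animal left out, and it was 0.10 without M28. It was 0.019 without the 5 libraries highest on chromosome 12 and -0.011 with the level of chromosome 10 as a covariate, both chosen after seeing the data. The 5 libraries include M28 and M42, and the level of chromosome 10 follows that of chromosome 12 (r = 0.995 in the atrazine lineage). Both settings thus take out most of the difference by construction, and nothing is read from these medians. The multiple disease median was -0.021 without M48.

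**Figure D5:**
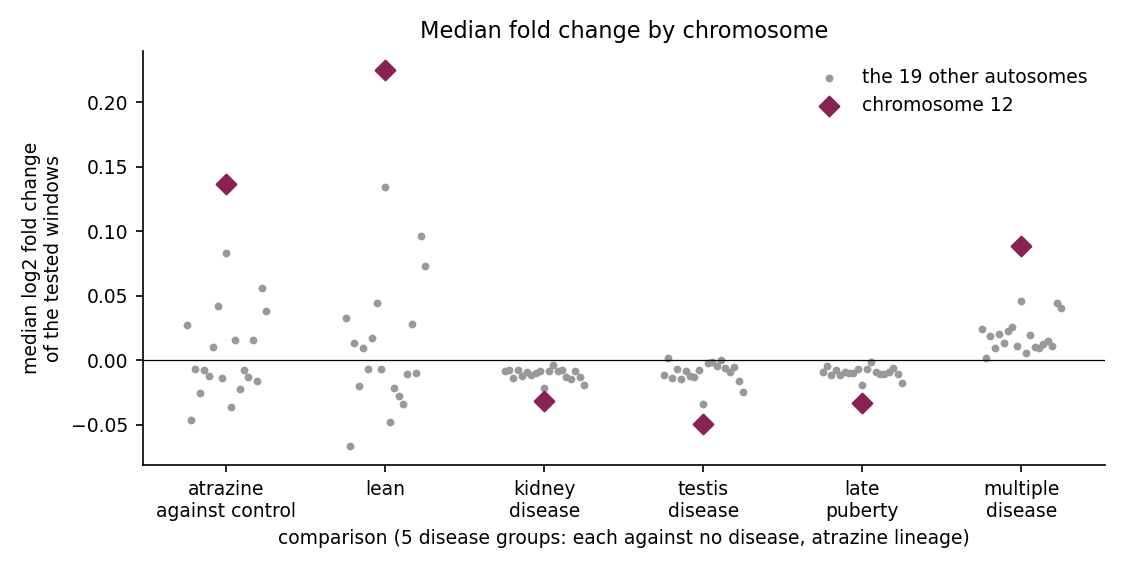
Median log2 fold change of the tested windows of each autosome in the 6 comparisons, with chromosome 12 marked. Chromosome 12 is the highest of the 20 autosomes in the lineage, lean and multiple disease comparisons and the lowest in the other 3, with all 5 disease groups set against the same 17 animals. Chromosome 10 is next to it in each comparison.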

How the data were processed

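The authors made ChIP-Seq libraries from sperm of F3 generation rats. Per the labels and methods, Trimmomatic trimmed the reads, Bowtie2 aligned them to Rnor 6.0, and MEDIPS gave the count in each window of 1000 bp. The deposited values are counts without normalization. Summed window counts of 19909382 to 239635003 per animal set the precision, and a window at 10 reads has a large counting error. Another 298 columns, which hold the authors' RPKM values, repeated counts and results of their comparisons, were not used. Methylation data were not analysed here.

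Chromosome 12 and the gene names were chosen with earlier results of these data known. Animals were grouped by title, lineage tag and disease, M1 has no counts, and M59 and M68 entered the lineage comparison only. RPM used the table totals. Levels were compared with two-sided exact permutation tests (100000 resamples for multiple disease and for correlations). Windows averaging 10 reads or more and 1 Mb bins were fitted over the whole table with edgeR 4.0.16 (TMM, quasi-likelihood test, dispersion trend from 200000 windows, R 4.3.3), and p-values were adjusted by the Benjamini-Hochberg method. Windows with p below 0.0001 were called and extended over neighbours with p below 0.1. Named in the text are the windows and bins with the smallest p in each direction (for lineage windows 5 higher and 3 lower; bins of the other disease groups, none with p below 0.05, are not listed), called windows with a gene, the 3 bins highest and lowest in level and largest in SD, the 3 highest windows and the 3 stretches of 50 kb with the largest SD. DESeq2 1.42.0 was an alternative, with a mean dispersion fit for the bins of multiple disease, where the local fit failed. All alternative window fits, with animals left out or otherwise, were run on chromosome 12 and 200000 other windows drawn at random. Python 3.11.15, NumPy 2.4.6, pandas 2.3.3, SciPy 1.17.1 and matplotlib 3.10.9 were used. Gene names come from the study's region lists (59 names on chromosome 12, of which 36 matched a RefSeq symbol and 1 a synonym on chromosome 12 of GRCr8). These lists cover only 66 regions of chromosome 12, so a window with no gene given may still lie in or near a gene. A called lineage window with a gene is not reported here. No sequence of Rnor 6.0 was used here. The scripts were tested on simulated data.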

Additional observations from a re-analysis of the deposited data

Results flagged for a closer look

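Among 15 groups of 4 to 10 animals whose values are given, 1 had an animal that stood apart by Dixon's criterion at the 95% level, which chance gives in about 1 of 20 groups. In the window chr12:28099001-28100000 the late puberty animal M51 had 0.337 RPM, and the gap to the next animal was 0.795 of the range of the 5 animals, above the critical value of 0.71. The other 4 had 0.101 to 0.150 RPM.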

How the results depend on the processing

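No paired analysis was possible because no animal belongs to both groups of a comparison. Of 56 alternative values of the difference in level 47 kept their direction and side of the threshold, as did 156 of 201 for named windows, of which 33 lost their call, 12 gained one and none changed sign. Of 74 median fold changes 6 reversed, 1 shrank to 0.019 and 67 kept their direction but not always their size. In the lean phenotype the median fell from 0.23 to 0.10 without M28. The covariate and the removal of the 5 libraries highest on chromosome 12 were chosen after seeing the data, and the cause of the shifts was not tested. Both take out part of the spread in the chromosome 12 level by construction, so nothing is read from the values under them. Leaving out M28 and M48, the highest libraries on chromosome 12, also lowers that spread by construction. Window counts under the alternatives have no share over all windows beside them, because it was not computed. They come from fits on chromosome 12 and 200000 other windows. In that subset the counts with all animals were 15 between lineages and 18 in the lean phenotype. Windows called between lineages, 16 in the report, numbered 36 with DESeq2's Wald test, 27 without the read filter, 42 without M28 and M48, 36 without animals with the DMSO tag, 73 with the level of chromosome 10 as covariate and 77 without the 5 highest libraries. The bins, 7 in the report, numbered 27 without M28 and M48 (30.4% of all bins), 45 without tagged animals (41.7%), 0 with animals without disease only (0%), 20 with the covariate (53.1%) and 51 without the 5 highest (70.3%). Lean windows, 25 in the report, numbered 41 with DESeq2, 8 at a mean of 20 reads, 1 without M28, 2 with the covariate, 4 without the 5 highest, and 1 to 81 with 1 animal left out. Lean bins, 0 in the report, numbered 44 without tagged animals (75.7% of all bins), 38 with all 19 animals without disease (54.8%) and 0 to 44 with 1 left out (0% to 80%). The 1 kidney window was not called (0 windows) on a subset of windows, with DESeq2 size factors or Wald test, without the filter, with all 19, or with any animal left out (0 to 0). Without tagged animals only M23 is left in the kidney group, so no call is read there. Testis windows, 2 in the report, numbered 5 without tagged animals, 1 with all 19 and 0 to 3 with 1 left out. Late puberty windows, 0 in the report, numbered 5 without tagged animals, 0 to 1 with 1 left out, and 1 with DESeq2, no filter, all 19, the covariate or without the 5 highest. Multiple disease windows, 0 in the report, numbered 1 with DESeq2, 2 without M48, 3 with the covariate and 4 without the 5 highest. With the covariate the median log2 fold change was -0.016 between lineages, -0.011 in the lean phenotype and 5.7e-05 in testis disease. Without the 5 highest it was 0.019 in the lean phenotype, 0.0028 in kidney disease and 0.0030 in late puberty, and without M48 it was -0.021 in multiple disease. The difference in level reversed in kidney disease to 0.00016 as a median over windows, 0.025 without the 2 tagged animals (M23 alone, assumed to vary like the others), 0.00039 without the 5 highest and -0.066 to 0.023 with 1 left out (above 0 without M64). It reversed in multiple disease to -0.0013 without M48 and in late puberty to 0.012 without the 5 highest and -0.041 to 0.0091 with 1 left out (above 0 without M38). In the lean phenotype it had an unadjusted p below 0.05 without tagged animals (0.24, exact permutation p = 0.0319) and was 0.081 to 0.28 with 1 left out (p = 0.0137, exact permutation test, without M66).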

Other observations

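Some regions that the study's lists pair with a gene on chromosome 12 did not pass the threshold in the fits used here. They were chosen by the study on these samples and read after their values were seen, so small p-values and separated groups were favoured by that choice. They are given as values and test nothing. In the lean phenotype the window chr12:2282001-2283000, paired with Clec4g, a C-type lectin, had 0.378, 0.491 and 0.591 RPM at the lowest, median and highest of 5 animals against 0.159, 0.248 and 0.360 RPM in the 17 animals without disease. These groups did not overlap, and the log2 fold change was 0.96 ± 0.24 (edgeR p = 0.00013, adjusted p = 0.24). The lean window chr12:29501001-29502000, paired with Caln1, had a lowest value of 0.4576 RPM just above the reference's highest of 0.4574 RPM. Rnf216, an E3 ubiquitin ligase gene, had a median of 0.562 against 0.292 RPM, with 4 of 5 animals above the reference range.

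In kidney disease the window chr12:45758001-45759000, paired with Srrm4, a regulator of neural splicing, had 0.115 to 0.176 RPM in 3 animals against 0.252 to 0.495 RPM, without overlap. The log2 fold change was -1.19 ± 0.33 (edgeR p = 0.00055, adjusted p = 1.0). The window paired with Mmd2 had 0.0704 to 0.279 RPM against 0.283 to 0.570 RPM. In late puberty the window chr12:30550001-30551000, paired with Nipsnap2, had 0.449, 0.481 and 0.679 RPM against 0.225, 0.315 and 0.431 RPM, again without overlap (log2 fold change 0.71 ± 0.20, edgeR p = 0.00076, adjusted p = 1.0). The other late puberty region, paired with Tmem132d, was lower, with 0.193, 0.255 and 0.304 RPM against 0.216, 0.450 and 0.573 RPM, and the groups overlapped (log2 fold change -0.79 ± 0.23, edgeR p = 0.00086, adjusted p = 1.0).

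In multiple disease the windows paired with Ccl26, a chemokine gene, and with Anapc7 and Arpc3, subunits of the anaphase-promoting complex and of the Arp2/3 complex, were above the reference median in 14 of 14 animals. Their medians were 0.472 against 0.322 RPM and 0.364 against 0.233 RPM, and the groups overlapped. The log2 fold changes were 0.75 ± 0.20 (edgeR p = 0.00041) and 0.86 ± 0.24 (edgeR p = 0.00098), both with an adjusted p of 1.0, and the highest animals had 1.39 and 1.79 RPM. The third region, paired with Tnrc18, had 0.298, 0.474 and 3.03 RPM against 0.135, 0.371 and 0.564 RPM, with 11 of 14 animals above the reference median (0.98 ± 0.29, edgeR p = 0.0014, adjusted p = 1.0). Without M48 the log2 fold changes were 0.56 ± 0.16 for Ccl26, 0.57 ± 0.18 for Anapc7 and Arpc3 and 0.47 ± 0.16 for Tnrc18.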
